A study of Mus musculus with 31 samples.

Results

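The cAMP response element (CRE) was followed here through the accessible promoters of mouse fibroblasts. The members were 210 ATAC-seq peaks that lay within 1 kb of the start site (TSS) of a protein-coding transcript and held the full palindrome TGACGTCA within 50 bp to either side of the summit, the base with the highest fragment coverage. They made up 1.66% (95% Wilson interval 1.45 to 1.90) of the 12664 peaks at coding promoters, out of 63456 peaks in all. These summit windows held 212 CREs, since the peaks of Mturn and Dusp8 held 2 each. The choice used the sequence and the place of a peak, not its height. ATAC-seq maps open chromatin with the Tn5 transposase, which cuts and tags DNA where nucleosomes and other proteins leave it free. The study compared how transcription factors bind mitotic chromosomes, and 1 library of parental NIH-3T3 cells served to define the regions open without any added factor. NIH-3T3 is an immortalised line of mouse embryonic fibroblasts, here wild type with no inducible transgene, from which 50000 cells were collected and tagged with 0.5 µM Tn5 and 12 cycles of PCR. The study's methods mention doxycycline for NIH-3T3 cells before ATAC-seq, whereas the labels of this library list none. The other 30 samples of the series were not analysed here. With 1 library no test between samples was possible, peaks are not replicates of a condition, and all intervals below cover counting error only.

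The CRE is the DNA element through which cyclic AMP reaches the genome. Hormones and transmitters that raise cAMP activate protein kinase A, which phosphorylates CREB, a leucine-zipper factor that binds the CRE as a dimer, and phosphorylated CREB recruits the coactivators CBP and p300. CREM, ATF1 and other ATF proteins recognise the same palindrome, and methylation of the central CpG hinders binding. A match to these letters is a description of the sequence, and no binding was measured in these data.

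The CREs of 8 members are shown first because their genes lie in the cAMP pathway, respond to it or had the highest peaks. Each line gives 28 bases of the mm10 reference (RefSeq, GRCm38.p6), written 5′ to 3′ along the gene, with the CRE in capitals. They lay at chr3:19311403-19311430 for Pde7a, chr8:22653433-22653460 for Polb, chr15:79347481-79347508 for Maff, chr1:79440077-79440104 for Scg2, chr5:137030195-137030222 for Vgf, chr2:152735181-152735208 for Id1, chr5:48372333-48372360 for 5730480H06Rik and chr1:95313547-95313574 for Fam174a. Pde7a, Polb and Scg2 are on the minus strand and the others on the plus strand.
Pde7a: cgcggcgtcgTGACGTCAcggtggcggc
Polb: gcctggcgcgTGACGTCAccgcgctgcg
Maff: gctggggcggTGACGTCActgcatgact
Scg2: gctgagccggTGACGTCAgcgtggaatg
Vgf: gaatgaacatTGACGTCAatggggcggg
Id1: tatgaatgggTGACGTCAcgggcctggc
5730480H06Rik: ggcgcgcgtaTGACGTCActgtgcggcg
Fam174a: ctcgaacctcTGACGTCActgagcgcag

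Whole summit windows are given for 4 members whose windows overlap no annotated exon, to show the surroundings of the element. The windows were chr3:19311334-19311434 for Pde7a, chr5:137030123-137030223 for Vgf, chr16:49699069-49699169 for Ift57 and chr7:142095339-142095439 for Dusp8, with Vgf and Ift57 on the plus strand. The Vgf, Ift57 and Dusp8 windows hold the letters of the CCAAT box on either strand, and the Dusp8 window shows its pair of CREs.
Pde7a: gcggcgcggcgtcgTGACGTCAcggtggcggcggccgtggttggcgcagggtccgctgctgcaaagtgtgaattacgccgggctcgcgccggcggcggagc
Vgf: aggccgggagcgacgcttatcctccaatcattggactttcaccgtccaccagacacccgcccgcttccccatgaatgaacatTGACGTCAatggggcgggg
Ift57: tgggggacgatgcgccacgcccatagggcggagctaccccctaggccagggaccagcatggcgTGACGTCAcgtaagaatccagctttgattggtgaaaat
Dusp8: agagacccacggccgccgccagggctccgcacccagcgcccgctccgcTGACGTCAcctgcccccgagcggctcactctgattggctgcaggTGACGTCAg

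Within 1 kb of the members lay 236 protein-coding genes. They were 2.07% of the 11403 coding genes that had a promoter peak, which in turn were 52.2% of the 21853 coding genes of the annotation. At 24 members more than 1 coding gene lay within 1 kb, and no gene had more than 1 member peak. The labelled cell type was read from marker genes. Of 16 fibroblast markers 14 had a promoter peak, among them Col1a1, Col1a2, Vim and Pdgfrb, against 3 of 9 epithelial, 4 of 8 blood and endothelial and 1 of 8 pluripotent and neural markers. None of these marker genes had a member peak.

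The genes that make up the cAMP pathway itself were mostly not members. Of the 20 genes of the CREB and ATF family, 14 had a promoter peak, and in 0 of the 14 did the peak hold a whole CRE. Crem, which encodes activators and repressors that bind the CRE, came nearest. It had 3 CREs within 100 bp of a coding TSS, the nearest 3.5 bp upstream of a TSS that lay in a peak, but the edge of that peak took in only 1 of its 8 bases. Creb5 had a CRE 8.5 bp upstream of a TSS that lay in no peak. Of 10 coactivators and regulators of CREB, all 10 had a promoter peak and 0 were members. Sik1, the kinase that switches off the CRTC coactivators, had a CRE 93.5 bp from the summit of a peak of 6.90-fold enrichment. Fold enrichment is the fragment coverage at the summit over the local expected coverage, each with 1 added. Of 33 genes of protein kinase A, adenylyl cyclases, phosphodiesterases and anchoring proteins, 19 had a promoter peak and 1 was a member. It was Pde7a, a phosphodiesterase that breaks down cAMP, whose peak was 1234 bp wide with 79 fragments at the summit, a 10.8-fold enrichment, and a CRE 94.5 bp upstream of the TSS. Prkar1a, the regulatory subunit that holds protein kinase A inactive, had its CRE 17.5 bp upstream of a TSS and 71.5 bp from the summit of a peak of 11.4-fold enrichment. These counts stand beside the background of 2.07% of genes with a promoter peak, and the lists are too small to be read against it.

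In peaks of genes that cAMP induces within minutes to hours, the CRE lay mostly outside the summit window, as it did over all coding promoter peaks with a CRE. Of 28 immediate early genes, 26 had a promoter peak, 9 had a CRE in that peak and 2 were members. Counted by peak and not by gene, 4.18% of all coding promoter peaks had a CRE anywhere in the peak. Of all genes with a promoter peak 2.07% were members, and the list is too small to be read against that share. The members were Maff, a small basic leucine-zipper factor, with 51 fragments and 5.76-fold enrichment, and Id1, an inhibitor of basic helix-loop-helix factors, with 86 fragments and 8.07-fold enrichment. The Maff element lay 25.5 bp upstream of the TSS, and the Id1 element, in a separate peak of 315 bp, lay 1056.5 bp upstream. In the other 7 the element lay outside the window, as it also did in 320 of the 529 coding promoter peaks with a CRE (60.5%). They were Sik1, Jund, Nr4a2, Dusp1, Ier2, Btg2 and Errfi1. Their elements lay between 49.5 bp (Ier2) and 114.5 bp (Btg2) from the summit. Ier2 thus stood just outside the window and Cenpw, at 46.5 bp, just inside it. Jund encodes a partner of FOS in AP-1, Nr4a2 an orphan nuclear receptor, Dusp1 a phosphatase of MAP kinases, and Btg2 and Errfi1 restrain proliferation and EGF receptor signalling. Their peaks ranged from 4.52-fold for Dusp1 to 11.8-fold for Errfi1. The sequences of 4 of them are given because they are well-known cAMP-induced genes whose element the summit window missed, at chr2:57115068-57115095 (Nr4a2), chr17:26508598-26508625 (Dusp1), chr8:84662880-84662907 (Ier2), all on the minus strand, and chr8:70698725-70698752 (Jund, plus strand).
Nr4a2: gccccagtcgTGACGTCAggtcggaaat
Dusp1: gtagggcgggTGACGTCAccgcccggtc
Ier2: ggtgttgcagTGACGTCActctcagtat
Jund: cccacccccaTGACGTCAacccacaatg

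Targets of CREB known from neurons, endocrine cells or liver divided by whether their promoter was open. Of 27 such genes, 7 had a promoter peak, where 52.2% of all coding genes did. Of the 7, 2 were members, where 2.07% of all genes with a promoter peak were, and the list is too small to be read against that share. Both encode granin-related proteins of secretory granules: Scg2, with 23 fragments and 6.30-fold enrichment, and Vgf, with 35 fragments and 4.33-fold enrichment. Their peaks were narrow, at 198 bp for Scg2 and 240 bp for Vgf, against a median of 762 bp over the members. Of the same 27 genes, 6 had a CRE within 100 bp of a coding TSS, and for 2 of the 6 that TSS lay in a peak, where it did for 382 of 556 coding genes with such a CRE (68.7%). The other 4 were Sst (somatostatin), Th (tyrosine hydroxylase, of catecholamine synthesis), Nos1 (neuronal nitric oxide synthase) and Ppargc1a (a coactivator of mitochondrial genes). None of the 4 had a promoter peak. Among the immediate early genes, 8 had a CRE within 100 bp of a TSS, and for 6 of these the TSS lay in a peak. They were Nr4a2, Dusp1, Maff, Ier2, Errfi1 and Crem, the last with its element at the peak's edge. Gem, a small GTPase, and Areg, a ligand of the EGF receptor, were the 2 whose TSS lay in none. The elements outside peaks were found by the same 8 bases. Their surroundings are shown for 4 genes at chr16:23890875-23890902 (Sst), chr7:142900023-142900050 (Th), chr5:51553988-51554015 (Ppargc1a), all on the minus strand, and chr5:91139528-91139555 (Areg, plus strand).
Sst: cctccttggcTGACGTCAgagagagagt
Th: agaggggcttTGACGTCAgcctggcctt
Ppargc1a: tgccttggagTGACGTCAggagtttgtg
Areg: ggctggtccgTGACGTCAcgggcggtgg

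Of 16 genes named as CREB targets in many cell types, all 16 had a promoter peak and 1, Polb, was a member. Polb, the DNA polymerase of base excision repair, had 35 fragments, 9.45-fold enrichment and a CRE 28.5 bp upstream of its TSS. Ccna2, cyclin A2, had a CRE in a 17.7-fold peak, but 175.5 bp from the summit. Among the fibroblast markers, Fn1 (fibronectin) had one 132.5 bp from the summit of a 10.5-fold peak.

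Outside these lists the members spanned many basic functions of the cell. The roles below were assigned after the member genes were known, and 71 genes were placed in 9 groups, so no test goes with them. Enzymes that modify or mature tRNA formed one group of 9 genes, with fold enrichments from 5.30 to 16.5 and a median of 12.5. They included Osgepl1 (16.5-fold), Trnt1 (which adds the CCA end, 16.0-fold), Nsun6 (a cytosine methyltransferase that shares its peak with Arl5b, 14.9-fold), Pop4 (a subunit of RNase P, 14.8-fold) and Trmt12 (5.30-fold). By name patterns written after these genes were seen, 71 tRNA modification and processing genes had a promoter peak, so the 9 are a description of the members and not a measure of excess. Of the aminoacyl-tRNA synthetases, which charge tRNAs, 34 had a promoter peak and 0 were members (upper limit 10.2%). This interval holds the 2.07% of all genes with a promoter peak, so no contrast with the tRNA-modifying genes can be read.

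The nuclear pore gave 4 members of 26 nucleoporin genes with a peak, by a pattern likewise written afterwards. They were Nupl2 (14.1-fold), Nup98, which shares its peak with Pgap2 (12.6-fold), Nup214 (9.78-fold) and Nup133 (6.30-fold). The RNA helicases of the DEAD and DEAH families gave 5 of 47 (10.6%, interval 4.63 to 22.6), beside 2.07% of all genes with a promoter peak. Many families were counted, and the share of a family picked from them is not a measure of excess. The 5 were Dhx36 (14.8-fold), Ddx19a (10.7-fold), Ddx49 with Cope (7.84-fold), Ddx28 with Dus2 (7.56-fold) and Ddx51 with Noc4l (4.67-fold). At the last 3 the peak lay within 1 kb of the TSSs of both genes and the CRE in a UTR exon, and it cannot be told which gene the element belongs to. Splicing and mRNA-protein particles were represented by 7 genes, from Magohb of the exon junction complex (4.20-fold, 15 fragments) to Snrnp40 of the U5 particle (15.6-fold).

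Cilium and centrosome genes formed a further group of 8, with a median of 12.2-fold. The highest was Ift57, of the intraflagellar transport particle that builds the cilium, with 137 fragments and 18.3-fold enrichment, and the lowest was Ift81 of the same particle, with 27 fragments and 6.46-fold. They were 2 of 14 intraflagellar transport genes with a peak, again by a pattern written afterwards. Ahi1 (15.7-fold), Nedd1 (14.1-fold), which anchors the γ-tubulin ring, and Plk4 (12.7-fold), the kinase that starts centriole duplication, lay between them. Genes of chromosome segregation, replication and repair had a median of 13-fold over 7 peaks. They included Cenpw of the inner kinetochore (17.5-fold), Orc5 of the origin recognition complex (16.3-fold), Kif18a, a motor that trims spindle microtubules (13.2-fold), Cenpe, another mitotic kinesin (12.1-fold), and Brca2 of recombinational repair (11.2-fold).

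The lowest medians of the 9 groups were 7.20-fold for 7 transcription factors and their partners, 7.66-fold for 8 genes of autophagy, endosomal sorting and protein turnover, and 7.77-fold for 14 signalling genes. Among the signalling genes Jak1, the kinase of cytokine receptors, was highest with 130 fragments and 16.3-fold enrichment. Crkl, an SH3 adaptor, reached 11.9-fold, Ikbkb, the kinase that releases NF-κB, 11.6-fold, and Braf, of the MAP kinase cascade, 7.26-fold. Of 10 Ppm1 serine/threonine phosphatases with a promoter peak 3 were members, Ppm1b at 9.25-fold, Ppm1d at 7.48-fold and Ppm1a at 7.23-fold. Of 6 genes of 14-3-3 proteins, which bind phosphorylated partners, 2 were members: Ywhah at 8.52-fold and Ywhaz at 8.07-fold. Both patterns were written after these genes were seen, so their counts describe the members only. Autophagy, endosomal sorting and protein turnover included Becn1 (6.69-fold) and Atg5 (11.0-fold), which start and extend the autophagosome, and Psmb2 of the proteasome (13.4-fold). Mitochondrial genes gave 7, from Mrpl16 of the mitochondrial ribosome (7.43-fold) to Slc25a26, the carrier of S-adenosylmethionine (15.7-fold). Transcription factors and their partners ran from Hoxc10 (3.32-fold, 16 fragments) to Hlf, a PAR leucine-zipper factor (13.7-fold, 80 fragments).

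Several large families had few or no members. Of 81 cytosolic ribosomal protein genes with a peak 2 were members, Rpl27a at 13.1-fold and Rpl18, which shares its peak with Sphk2, at 5.02-fold. No member was found among 44 genes of complex I, 50 translation initiation factors, 28 RNA polymerase subunits, 36 DnaJ chaperones, 46 ubiquitin-specific proteases and 18 collagens with a promoter peak. The upper limits of the intervals were between 7.13% for the initiation factors and 17.6% for the collagens, so shares near the 2.07% background were not detectable as different at these sizes. One member was found among 78 mitochondrial ribosomal proteins, 35 proteasome subunits, 32 ubiquitin-conjugating enzymes, 35 vacuolar sorting proteins, 32 coatomer and Sec proteins, 26 Kif kinesins, 20 cyclins and 14 Hox genes each, and 2 among 190 solute carriers and 41 anaphase-promoting complex and Cdc genes each. The families were taken by name pattern, so that the kinesin Cenpe does not count among the Kif genes.

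Zinc finger genes were the largest family among the members, and 7 of the 14 lay in a single stretch of 418 kb on chromosome 13. By name patterns, 348 zinc finger genes had a promoter peak and 14 were members (4.02%, interval 2.41 to 6.64), beside 2.07% of all genes with a promoter peak. Of the Zfp genes on chromosome 13, 8 of 30 with a promoter peak were members (26.7%, interval 14.2 to 44.4), against 3 of 274 elsewhere (1.09%, interval 0.373 to 3.17). Chromosome 13 accordingly had the highest share of members, 15 of 498 promoter peaks or 3.01%, and without these 8 genes it had 7 of 490 (1.43%). Over all chromosomes the share was 1.60% without them. The split by chromosome followed from where the members lay, so these shares describe the members and are not a measure of excess. The 8 peaks had between 36 and 96 fragments and fold enrichments from 9.38 for Zfp595 to 16.9 for Zfp87, and each CRE lay between 3.5 and 52.5 bp upstream of the TSS. Some of these promoters were alike in sequence around the element. Over 92 bases around the element, its own 8 left out, Zfp595 and Zfp953 were 85.9% identical, Zfp457 and Zfp65 81.5%, and Zfp874a and Zfp874b 69.6%. Among the 28 pairs of the 8 the median identity was 50.5% and the lowest 39.1%, against a median of 28.3% over all 22366 pairs of member CREs. All 4 pairs at or above 60% identity came from this group, and the highest identity between CREs outside it was 51.1%. The alike pairs do not count as independent promoters, and since the authors kept uniquely mapped reads only, the effect of the likeness on their coverage was not tested. Their sequences are shown to make the likeness and its limits visible, all on the minus strand of chr13, from 67306451 (Zfp457) to 74390869 (Zfp72).
Zfp457: ccatcgcctgTGACGTCAtcagaaagag
Zfp65: ccgtccccagTGACGTCAtcagaaaggg
Zfp953: cggatgcctgTGACGTCAtcagaaggct
Zfp595: cctaccacgtTGACGTCAccaaaaggct
Zfp874a: tgcagcacggTGACGTCAcaggtctgca
Zfp874b: tgtagcacggTGACGTCAcagatcggta
Zfp87: gtgccctctgTGACGTCAcaagcagccg
Zfp72: tcgcatggtgTGACGTCAcaagcaaggg

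The height of the members spanned 3.27- to 23.6-fold, with a median of 9.78 and quartiles of 7.06 and 12.8. Fragments at the summit, which follow from a peak's fold enrichment and p-value, ran from 15 to 185 with a median of 61.5. The highest member was the promoter of 5730480H06Rik, a gene without a described role, with 132 fragments. Fam174a followed with 185 fragments and 19-fold, and then Egf (epidermal growth factor, 18.3-fold), Ift57, Cenpw, the shared promoter of Ccdc173 and Phospho2 (17.3-fold), Efcab14 (17.1-fold), Zfp87, 1700066M21Rik (16.9-fold) and Osgepl1. The Egf element lay 277.5 bp upstream of the nearest TSS inside an intron of a longer transcript. The 5 lowest members were Rai1 (3.88-fold), Cltb (3.65), Dlg4 (3.49), Hoxc10 (3.32) and Csdc2 (3.27), with 16 to 25 fragments each. Dlg4 encodes the postsynaptic scaffold PSD-95 and Cltb a clathrin light chain. Widths ran from 122 bp for Hoxc10 to 2258 bp for Ywhaz. After Ywhaz, the widest were the histone cluster promoter of Hist1h1a, Hist1h3a and Hist1h4a (2024 bp), Zbtb11 (1893 bp), Ltbp1 (1632 bp) and the shared promoter of Slx4ip and Mkks (1619 bp). The pair of CREs lay at 68.5 and 10.5 bp upstream of the TSS in Mturn (9.97-fold) and at 115.5 and 71.5 bp in Dusp8 (4.42-fold, 18 fragments).

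With the summit window of 50 bp to either side, members were not detectably higher or wider than other promoter peaks of the same base composition. The 12454 other coding promoter peaks had a median of 8.69-fold, and 9.06-fold once weighted to the GC of the members in bins of 5 percentage points. The ratio of medians was 1.08 (interval 0.934 to 1.17). Width gave 762 against 751 bp, a ratio of 1.01 (0.952 to 1.10), and fragments 61.5 against 58, a ratio of 1.06 (0.948 to 1.14). All 3 intervals held 1. With 100 bp to either side, which gives 339 CRE peaks, the ratio of fold enrichments was 1.09 and its interval of 1.03 to 1.17 lay above 1. The window GC of the members ran from 42.6 to 82.2% with a median of 65.3%, against 63.4% in the other peaks. The lowest GC belonged to Zfp595, Tcim and Rai1 and the highest to Pdpr, Lmbrd1 and Cnnm4. The members held 2 to 23 CpGs per window with a median of 10, the CRE's own included, against 8 in the other peaks and 9 after weighting. In the bin from 45 to 50% GC the 11 members had a median of 11.2-fold, against 6.25-fold for 789 other peaks, and in the bin from 75 to 80% the 15 members had 7.48-fold against 8.37-fold for 1148. Of the 11 members in the lower bin, 4 belonged to the chromosome 13 zinc finger genes, with a median of 13.2-fold, and the other 7 had a median of 7.27-fold.

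**Figure D1:**
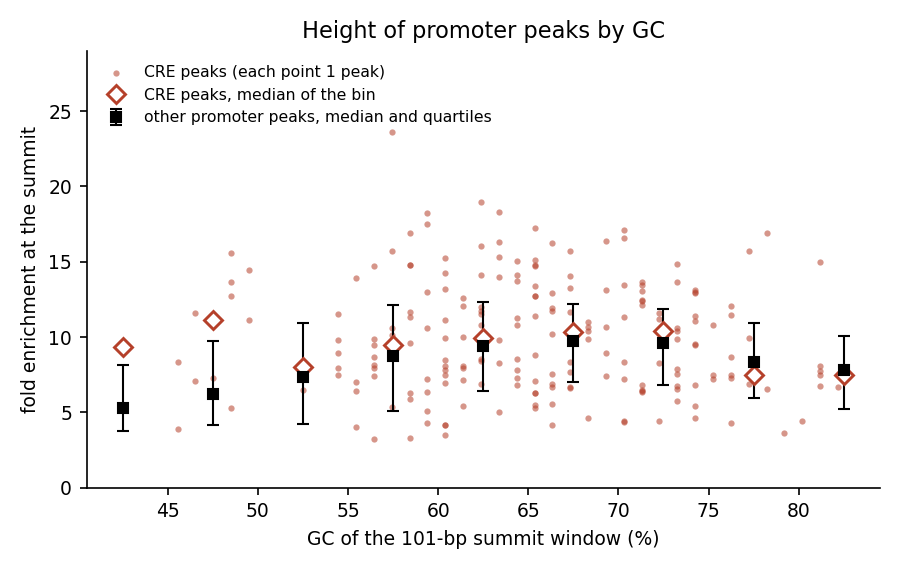
Fold enrichment at the summit (vertical axis) against the GC of the summit window in percent (horizontal axis) for the 210 CRE peaks (points), with the median of CRE peaks in each 5-point bin (open diamonds) and the median and quartiles of other promoter peaks (black squares and bars). Between 50 and 75% GC the medians of both sets lie close together, and the bin from 45 to 50% has 11.2-fold against 6.25-fold.

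Inside the summit window, the element lay most often 20 to 30 bp to the side of the summit. Of the 212 CREs, 85 (40.1%, interval 33.7 to 46.8) had their centre 20 to 30 bp from the summit, where 21.3% of the possible positions lie. Within 20 bp lay 30.2% (24.4 to 36.7) against 42.6% of the positions, and within 10 bp 10.8% against 21.3%. The median distance was 24 bp, near the middle of the 46.5 bp that the window allows, so the median alone does not set the element apart from evenly used positions. The sides were alike: beyond 20 bp, 71 CREs lay on the upstream and 77 on the downstream side of the summit. Other motifs differed among themselves in the same promoter peaks. The NRF1 motif (GCGCATGC) had 12.7% of 354 matches within 20 bp and 42.9% at 20 to 30 bp, the latter near the CRE's 40.1% and the former below its 30.2%, whereas the CCAAT box of NF-Y had 45.6% of 3466 matches within 20 bp and 19.9% at 20 to 30 bp. The AP-1 motif (TGANTCA), which differs from the CRE in its centre, had 38.7% and 28.8%. Members with the element within 20 bp of the summit had a median of 8.33-fold (interval 7.27 to 10.6, 63 peaks), and those with it farther away 9.91-fold (8.95 to 11.2, 147 peaks). What sets the distance was not tested.

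**Figure D2:**
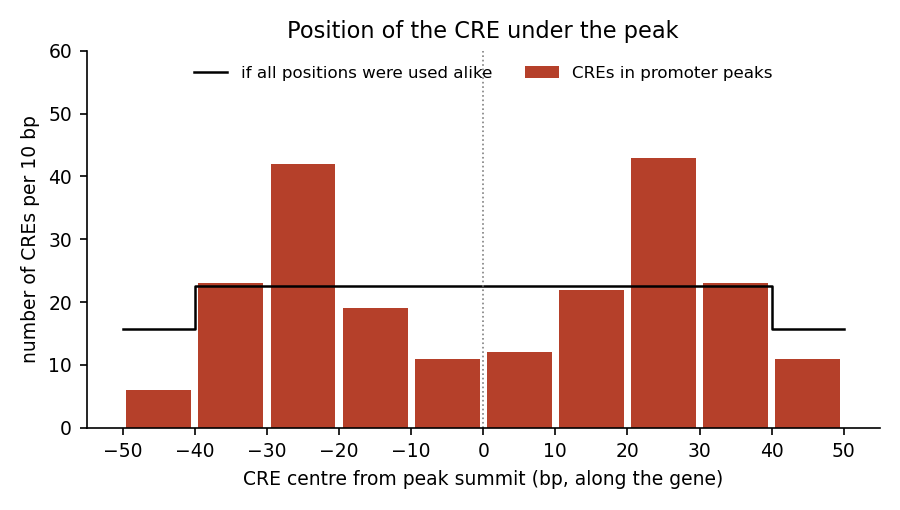
Number of CREs per 10 bp (bars) by the distance of the CRE centre from the peak summit in bp along the direction of the gene, for the 212 CREs of the 210 promoter peaks. The line shows the numbers if all positions of the window were used alike, and the bars exceed it most at 20 to 30 bp on either side, where 85 CREs lie.

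Around the start of the gene the element was concentrated just upstream. Of the 212 CREs, 168 (79.2%, interval 73.3 to 84.2) lay upstream of the nearest coding TSS, and 109 (51.4%) within 50 bp of it on that side. A further 31 (14.6%) lay 50 to 100 bp upstream and 27 (12.7%) in the 50 bp downstream. The upstream elements had a median distance of 32 bp, with quartiles of 14.5 and 70.5 bp. Alternative starts crowd many promoters in the annotation, which shortens the distance to the nearest one. By the annotation, 99 of the 212 CREs lay between transcripts, 66 in a UTR exon, 17 in another exon and 30 in an intron. The 139 members with the element up to 100 bp upstream of the TSS had a median of 10.6-fold (interval 9.45 to 11.5), against 7.27-fold (6.63 to 9.79) for 27 with it farther upstream and 8.36-fold (7.15 to 10.0) for 44 with it downstream. Promoter peaks without a CRE in the window were also higher where they overlapped a TSS, with a GC-weighted median of 9.91-fold against 9.06-fold for all of them. What the place of the element adds to this was not tested. The farthest elements were those of Crlf2 at 1181.5 bp upstream and Rai1 at 1404.5 bp downstream. The peak itself spanned a coding TSS in 190 members (90.5%) and in 77.9% of the other promoter peaks, a share not weighted for GC. A divergent pair of coding genes within 1 kb was present at 19 members (9.05%, interval 5.87 to 13.7), near the 8.66% of other peaks weighted to the same GC.

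**Figure D3:**
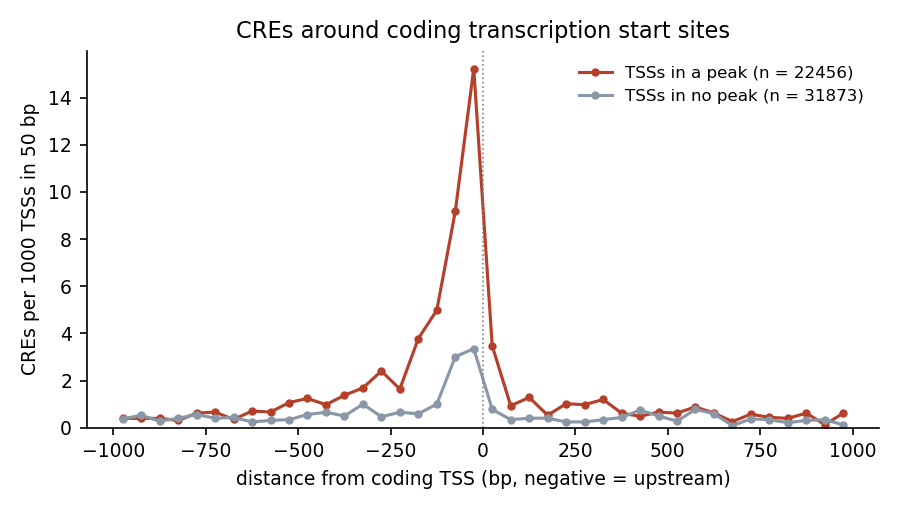
CREs per 1000 coding TSSs in steps of 50 bp (vertical axis) by distance from the TSS in bp (horizontal axis, negative upstream), for TSSs that lie in a peak and TSSs that lie in none. The curve of TSSs in a peak reaches 15.2 per 1000 in the 50 bp just upstream, against 3.36 for TSSs in no peak.

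Read from the sequence, start sites with a CRE were open more often than others of the same GC. Of 54329 distinct coding TSSs, 861 had a CRE within 100 bp, and 630 of the 861 (73.2%, interval 70.1 to 76.0) lay in a peak. Without a CRE 40.8% lay in a peak, or 54.6% when weighted to the GC of the first group. The gap was widest in the middle range. At 55 to 60% GC, 91 of 127 TSSs with a CRE lay in a peak (71.7%) against 36.7% without, and at 60 to 65% the shares were 83.9 and 60.05%. At 70 to 75% GC they were 84.96 and 73.7%. Weighted to the number of CpGs outside the element in place of GC, a comparison chosen after the data were seen, the share without a CRE was 61.8%. Neighbouring TSSs share an element and are not independent. Counted by gene, without weighting for GC or CpGs, a TSS with a CRE lay in a peak for 382 of 556 genes (68.7%, interval 64.7 to 72.4). Of genes without one, 46.8% had any of their TSSs in a peak, which is a looser condition. These shares do not say that the element opens the promoter, and which genes the cells express was not measured.

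**Figure D4:**
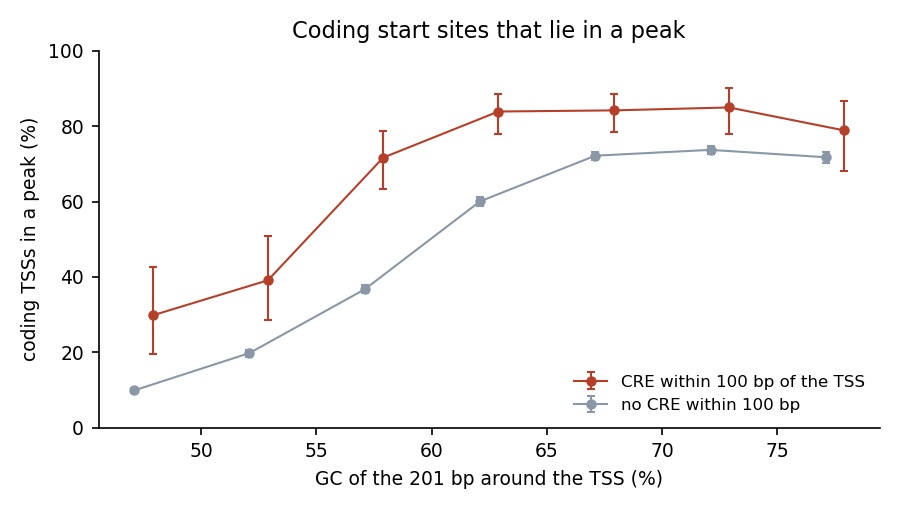
Share of coding TSSs that lie in a peak in percent (vertical axis) by the GC of the 100 bp to either side of the TSS in percent (horizontal axis), with and without a CRE within 100 bp; bars are 95% Wilson intervals and only bins with 20 or more TSSs with a CRE are drawn. The TSSs with a CRE lie above the others in every bin drawn, by the most at 55 to 60% GC with 71.7 against 36.7%.

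Of the sequences compared, the full palindrome had the highest share at summits relative to flanks 500 bp away. Windows of the same size centred 500 bp to either side of the 12664 promoter summits held a CRE in 17 of 25328 cases (0.0671%), so the share at summits was 24.7 times as high (interval 15.1 to 40.5). The ratio depended on where the flanks lay, with 7.5 at 250 bp and 14.5 at 1000 bp. The flanks were poorer in GC, with a median of 51.5% against 63.4% at summits. For scale, the 256 palindromes of 8 bases were ranked by the same ratio. Of the 79 with at least 20 summit windows the CRE ranked 1 and the median ratio was 1.79. Next came CGCATGCG, which contains most of the NRF1 motif, at 18.6, and CTCGCGAG at 8.88. In a comparison added after the data were seen, the CRE also ranked 1 with flanks at 250 bp, but 3 with flanks at 1000 bp, after CTCGCGAG at 20.2 and CGCATGCG at 19.6. By share of summit windows the CRE ranked 4, after 3 palindromes made of G and C alone. Among the 12 sequences with 1 base changed, counting positions from 1 at the 5′ end of TGACGTCA, the ratios ran from 0.754 for C4A to 9.0 for G2T (TTACGTCA, 45 summit and 10 flanking windows). T1C reached 8.43 and A3G 4.94. Changes of the central CpG gave the lowest ratios, 0.754, 1.39 and 1.76 for C4A, C4G and C4T, along with 1.70 for G2A. Only the C4 changes take away the CpG, and summits and flanks were not matched for CpG content. The bases next to the palindrome were uneven too. Read outward on both strands, the base before the element was G in 50.9% of cases, C in 28.3%, A in 15.3% and T in 5.42%. For 178 CREs within 100 bp of a coding TSS but in no peak, the shares were 41.6, 28.9, 15.7 and 13.8%. Counted with its reverse complement, the 10-letter form CTGACGTCAC made up 57 of the 212 CREs (26.9%), GTGACGTCAC 56 (26.4%) and ATGACGTCAC 38 (17.9%). Among the 178 CREs in no peak these forms made up 28.1, 16.9 and 12.4%. CTGACGTCAC and ATGACGTCAC each pool a sequence with a different reverse complement, whereas GTGACGTCAC is its own. Their shares are therefore not directly comparable with each other.

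For none of the other motifs compared was a difference between members and other promoter peaks detectable. Of 20 motifs searched on both strands, with the CRE itself masked, the share in other promoter peaks weighted to the members' GC lay inside the members' interval for all 20. For rare motifs this condition is easily met. The members' interval for NRF1 ran from 0.0841 to 2.65%, so differences of several-fold could lie inside it. The CCAAT box (CCAAT, NF-Y) was in 21.9% of the members and 21.2% of the weighted others. The GC box (GGGCGG, SP and KLF factors) was in 36.7 and 40.8%, and the ETS motif (CCGGAAG) in 11.9% (interval 8.20 to 17.0) and 9.81%. The AP-1 motif (TGANTCA), which was in 26.2% of all peaks of the library, was in 3 members (1.43%, interval 0.487 to 4.12) and 4.04% of the weighted others, the NRF1 motif in 0.476 and 2.25%, the E-box (CACGTG) in 2.86 and 4.69%, and the TATA box (TATAAA) in 1.43 and 1.03%. The 5-letter core TGACG, counted outside the full CRE, was in 14.8% of both. The other 12 motifs of the list stood for YY1 (AAGATGG), E2F (TTCCCGC), RFX (GTTGCCA), TEAD (GGAATG), CTCF (CCACNAGGG), C/EBP (TTGCGCAA), ZBTB33 (TCTCGCGA), ZNF143 (ACTACAA) and relatives of the CRE (TGACGTAA, TGACGCAA, TGACGTGG, TGATGCAA), and were each in 3.81% of the members or fewer.

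**Figure D5:**
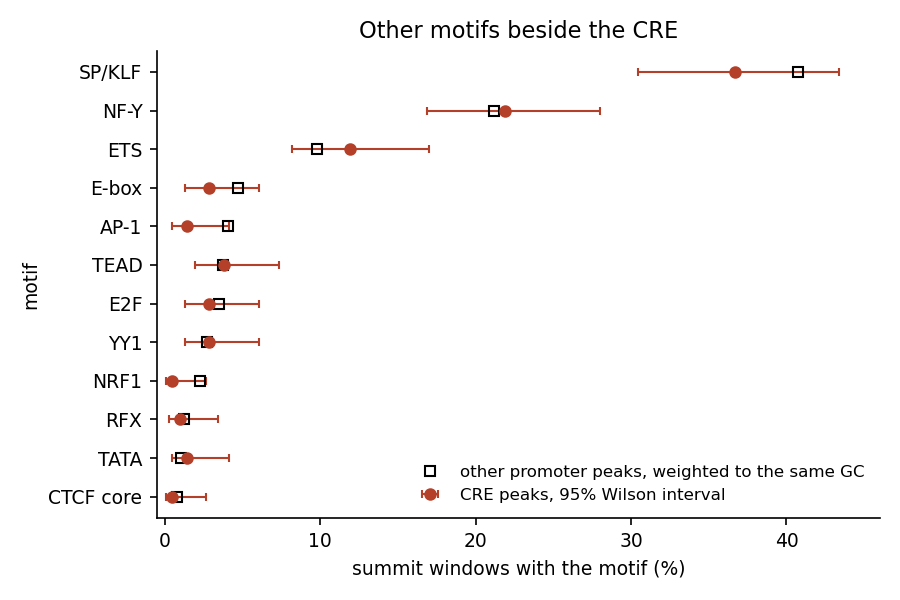
Share of summit windows with each of 12 motifs in percent (horizontal axis), for the 210 CRE peaks with the CRE masked (points with 95% Wilson intervals) and for other promoter peaks weighted to the same GC (open squares). Each square lies inside the interval of its point, and the GC box and the CCAAT box are the most frequent.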

How the data were processed

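ATAC-seq of 1 library of parental NIH-3T3 cells was analysed, and no groups were compared. Reads were mapped by the authors to mm10 with STAR (2.5.3a in the submitters' processing notes). Uniquely mapped reads were kept, Picard took out duplicates, and MACS2 (2.1.1.20160309) called the peaks from whole fragments. The deposited list gives per peak a position, a fold enrichment, which is a ratio of fragment coverage at the summit to the expected coverage, and a −log10 p and −log10 q. Total depth is unknown. Fragments at the summit were solved from the deposited fold enrichment and −log10 p and came out whole within 0.02 for 63454 of 63456 peaks and for all 210 members. The peak list holds no reads, so the shift of Tn5 cut sites was not examined.

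The RefSeq GRCm38.p6 sequence and GENCODE M21, both of the mm10 build, gave windows, coding transcript starts and places of CREs. Coordinates count from 1. Peaks were taken as promoter peaks when their interval lay within 1 kb of a coding TSS. Comparison peaks were weighted over bins of 5 percentage points of window GC to the members, which uses every peak and draws no list, and 0 members were lost from the bins. Shares carry Wilson intervals, medians binomial order-statistic intervals and the ratio of shares a log interval, all at 95%. Scripts ran in Python 3.11.15 with SciPy 1.17.1, NumPy 2.4.6, pandas 2.3.3 and, for the plots, matplotlib 3.10.9, and were tested on simulated data.

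The members and the lists (CREB and ATF family, CREB regulators, protein kinase A and cAMP genes, immediate early, tissue-restricted and general CREB targets, markers, and families by name pattern) were chosen with earlier results of these data known, and the roles and the patterns for tRNA, nucleoporin, Ppm1, 14-3-3 and intraflagellar transport genes after the member genes were seen. The split of the Zfp genes by chromosome likewise followed from where the members lay. Genes named by rule were listed genes with a member peak, the 10 highest and 5 lowest members, the 5 widest, those with 2 CREs, and the 3 lowest and 3 highest in GC. Other genes were named for their role. Sequences of chromosome 18 are not shown. Alternatives covered the peak threshold, the distance and kind of TSS, soft-masked summits, the window, flanks, GC bins, comparison peaks, CpG strata and the rank among palindromes with other flanks, the last 2 chosen after seeing the data.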

Additional observations from a re-analysis of the deposited data

How the results depend on the processing

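Over 77 alternatives of 8 results, 64 values stayed within the interval of the reported value and 13 did not. The share of coding promoter peaks with a CRE was 1.92% among peaks of at least 5-fold enrichment and also 1.92% where the peak had to overlap the TSS, and by construction 0.640% in a 51-bp window, 2.68% with 100 bp to either side of the summit and 4.18% over the whole peak. The ratio of summits to flanks was 7.5 with flanks at 250 bp and 14.5 at 1000 bp, and no alternative took it below 7.5; the cause was not tested. With a 51-bp window, which leaves 81 members, the ratios to other promoter peaks turned from above to below 1, at 0.920 for fold enrichment and 0.948 for width, with intervals that hold 1. Ratios also fell below 1 among peaks of at least 5-fold enrichment (0.996 for fold enrichment, 0.971 for width, 0.970 for fragments), among peaks that overlap the TSS (0.968 for width, 0.954 for fragments) and, for width, in CpG strata (0.987), all with intervals that hold 1. With 100 bp to either side of the summit the ratio of fold enrichments was 1.09 (interval 1.03 to 1.17), above 1; the cause was not tested. CREs within 10 bp of the summit were 10.8% against 21.3% of positions. TSSs with a CRE lay in a peak in 76.2% of cases with 51 bp to either side, 76.1% with a peak within 1 kb and 69.6% with peaks of at least 5-fold enrichment, against GC-weighted shares of 53.9, 61.6 and 51.4% without a CRE; the cause was not tested. CREs upstream of the TSS stayed between 78.7 and 81.2%.

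With 1 library, no value carries an error between samples, and 17 flanking windows with a CRE limit the precision of the ratio. No paired analysis was possible because a lone library has no partner in another group.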

Other observations

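Away from coding promoters the element was rare in open chromatin. Of the 50792 peaks farther than 1 kb from a coding TSS, 109 (0.215%, Wilson interval 0.178 to 0.259) had a CRE in the summit window, against 1.66% at coding promoters. Peaks at the TSS of a noncoding transcript had 12 in 3600 (0.333%, interval 0.191 to 0.582), and peaks over 1 kb from any TSS 97 in 47192 (0.206%). Windows 500 bp to either side of the 50792 summits held a CRE in 0.0502% of cases. None of these shares was matched for GC. The AP-1 motif was in 26.2% of all 63456 peaks, but its 7 letters include a free base and no CpG, so that share is not a like comparison.

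Counted over the genome, 14499 copies of the palindrome lie on chromosomes 1 to 19, X and Y, and 844 of them (5.82%) lay in a peak of these fibroblasts. Only 7.21% of the copies lie within 1 kb of a coding TSS, but 554 of the 844 in a peak (65.6%) did. Within 100 bp of a coding TSS 372 of 550 copies (67.6%) lay in a peak. The share was 56.4% at 100 to 250 bp, 34.7% at 250 to 500 bp, 20.4% at 500 to 1000 bp, 3.46% at 1000 to 5000 bp and 2.03% beyond. Base composition moved with the share on both sides of the 1 kb limit. Beyond it, 25.3% of copies in sequence of at least 60% GC lay in a peak against 1.83% in sequence of lower GC, and within it 77.2 against 31.2%. Among copies within 100 bp of a coding TSS, the form GTGACGTCAC lay in a peak in 76.7% of cases, ATGACGTCAC in 78.6% and CTGACGTCAC in 65.3%. How these shares relate to methylation of the central CpG was not tested.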
